A study of Rattus norvegicus with 6 samples.

Results

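MicroRNA gene models are the annotated hairpin genes from which microRNAs are cut, and 46 of the 21028 gene models in the table carried a microRNA symbol (Mir followed by a number, which leaves out let-7 symbols). The libraries were poly(A)-enriched RNA-seq of sciatic nerve repaired with a conduit, a tube that bridges the nerve gap, in 6 female rats, all labelled WT. PCL conduits without ultrasound were used in 3 rats, called PCL here, and PLLARS conduits with ultrasound in the other 3, called PLLARS_US. Conduit and ultrasound differed together, so no comparison separates them, and the sources used here do not give the rats' age or the time after surgery. Each library was taken as a separate rat, and p-values measure only the spread between these libraries. Values were deposited as FPKM, which is fragments scaled to the length of the model and the depth of the library, and the depth recovered from the steps between low FPKM values was about 15320000 to 16690000 fragments a library.

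A microRNA begins as a long primary transcript, often capped and polyadenylated, that folds into a hairpin. Drosha and its partner Dgcr8 cut the hairpin out in the nucleus, Xpo5 carries it to the cytoplasm, Dicer1 trims it to a short duplex, and an Argonaute protein takes up one strand and uses its seed to find target mRNAs. In peripheral nerve, microRNAs are known for tuning Schwann cell proliferation, myelination and the repair response after injury. A poly(A)-enriched library of fragments of about 200 bases does not hold the mature microRNAs. The values here were therefore read as longer RNA that covers the hairpin, such as primary transcripts, retained introns or exons of a gene around it. The source of the fragments was not tested. Whether the library kit keeps strand is not stated, and without it RNA of the opposite strand cannot be told apart.

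The strand matters because many of these models lie over a better known hairpin. The 46 models were 100 to 141 bases long with a median of 111, and no model in the table was shorter than 100 bases. In the RefSeq set used here 305 of 419 rat hairpins are under 100 bases, and those hairpins were not measured as models of that length. Of 45 models found among RefSeq microRNA genes, 20 overlap a further RefSeq microRNA gene. For 15 of these a hairpin sequence of the other gene was at hand. All 15 lay on the opposite strand, and in 14 of them the reverse complement of the whole partner hairpin was inside the model's sequence. The pair with the most fragments is shown first, RefSeq sequences of the build GRCr8, 5′ to 3′. Capitals in the longer hairpin mark the reverse complement of its partner. The pair after it joins Mir3582, whose mature product RefSeq names miR-133c, to the muscle hairpin Mir133a1.
Mir3074 hairpin: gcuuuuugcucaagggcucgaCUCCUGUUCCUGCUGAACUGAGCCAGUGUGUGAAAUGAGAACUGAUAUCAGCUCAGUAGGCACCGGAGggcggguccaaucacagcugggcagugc
Mir24-1 hairpin: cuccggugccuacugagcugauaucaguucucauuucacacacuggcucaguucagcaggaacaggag
Mir3582 hairpin: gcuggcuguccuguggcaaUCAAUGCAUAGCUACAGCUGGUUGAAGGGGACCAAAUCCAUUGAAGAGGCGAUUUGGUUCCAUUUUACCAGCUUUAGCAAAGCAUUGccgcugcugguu
Mir133a1 hairpin: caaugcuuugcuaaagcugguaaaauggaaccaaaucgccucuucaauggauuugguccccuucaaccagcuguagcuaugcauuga

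A selection of mature sequences from the models described below is printed with the seed, bases 2 to 8, in capitals. A mature sequence was found for 42 of the 46 models. Products of the models come first, and miR-214-3p, miR-338-3p, miR-31a-5p and miR-208a-3p, at the end, come from hairpins on the other strand of a model. miR-221-3p and miR-222-3p share the seed GCUACAU, and Mir24-1 and Mir24-2 encode the same miR-24-3p. The seeds of miR-3074, miR-3120 and miR-3065-5p differ from those of the mirrored miR-24-3p, miR-214-3p and miR-338-3p.
rno-miR-3074: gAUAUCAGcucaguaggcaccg
rno-miR-24-3p: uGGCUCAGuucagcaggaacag
rno-miR-221-3p: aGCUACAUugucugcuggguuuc
rno-miR-222-3p: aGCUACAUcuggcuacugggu
rno-miR-143-3p: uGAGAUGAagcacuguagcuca
rno-miR-126b: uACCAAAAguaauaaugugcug
rno-miR-142-3p: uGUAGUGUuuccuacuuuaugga
rno-miR-223-3p: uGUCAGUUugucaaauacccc
rno-miR-1249: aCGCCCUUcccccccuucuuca
rno-miR-3120: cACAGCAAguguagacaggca
rno-miR-3065-5p: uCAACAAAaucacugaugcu
rno-miR-31b: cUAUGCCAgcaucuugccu
rno-miR-3546: aUAACCCGggccaaaagcucac
rno-miR-214-3p: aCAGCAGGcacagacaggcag
rno-miR-338-3p: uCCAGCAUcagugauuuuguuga
rno-miR-31a-5p: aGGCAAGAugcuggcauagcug
rno-miR-208a-3p: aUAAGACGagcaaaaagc

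Fewer fragments fell on microRNA models in the PLLARS_US libraries than in the PCL libraries. Because the models are short and single-exon, FPKM times length came out as whole multiples of a fixed step: all 136 values above 0 that were under 50 fragments lay within 0.03 of a whole number. A single fragment was worth 0.425 to 0.653 FPKM depending on model and library. The 46 models held 162, 312 and 282 fragments in PCL replicates 1 to 3 and 102, 88 and 108 in PLLARS_US replicates 1 to 3, so the groups did not overlap. Values joined by "against" are PCL first and PLLARS_US second, in replicate order. Scaled to 1000000 library fragments this was 15.7 ± 4.64 against 6.19 ± 0.732 (SD, n = 3 each), a ratio of 2.53. The 95% Poisson intervals, which cover counting error only, ran from 138 to 189 fragments for the lowest PCL library and from 88.6 to 130 for the highest PLLARS_US library. By the summed rate of each model 34 were lower and 12 higher in the PLLARS_US group, and 7 of the 46 had all PLLARS_US libraries below all PCL libraries. None of the 46 had them all above. Among all tested models 57.0% were lower, 10% had no overlap in the lower direction and 4.33% had none in the higher, although most of the 46 did not reach the floor for that test.

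The same direction held for other short models, so the direction is not particular to microRNA models. The other 631 models of at most 150 bases together held 240 ± 17.5 against 170 ± 7.98 fragments on the same scale, a ratio of 1.41. Among them 181 U RNA models had 22.8 ± 1.63 against 12.6 ± 2.18 and 35 snoRNA models 16.4 ± 0.832 against 8.30 ± 0.511, each without overlap. Such RNAs are mostly not polyadenylated, and U RNA models are many near-identical copies. MicroRNA fragments per 1000 fragments on the other short models were 42.6, 78.0 and 77.0 against 37.8, 30.5 and 41.8. The groups did not overlap on that ratio, though the lowest PCL library stood close to the highest PLLARS_US library. In bulk tissue, fewer cells of a type and less RNA per cell cannot be told apart, and whether the lower short-model signal shares a source with the microRNA difference was not tested.

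**Figure D1:**
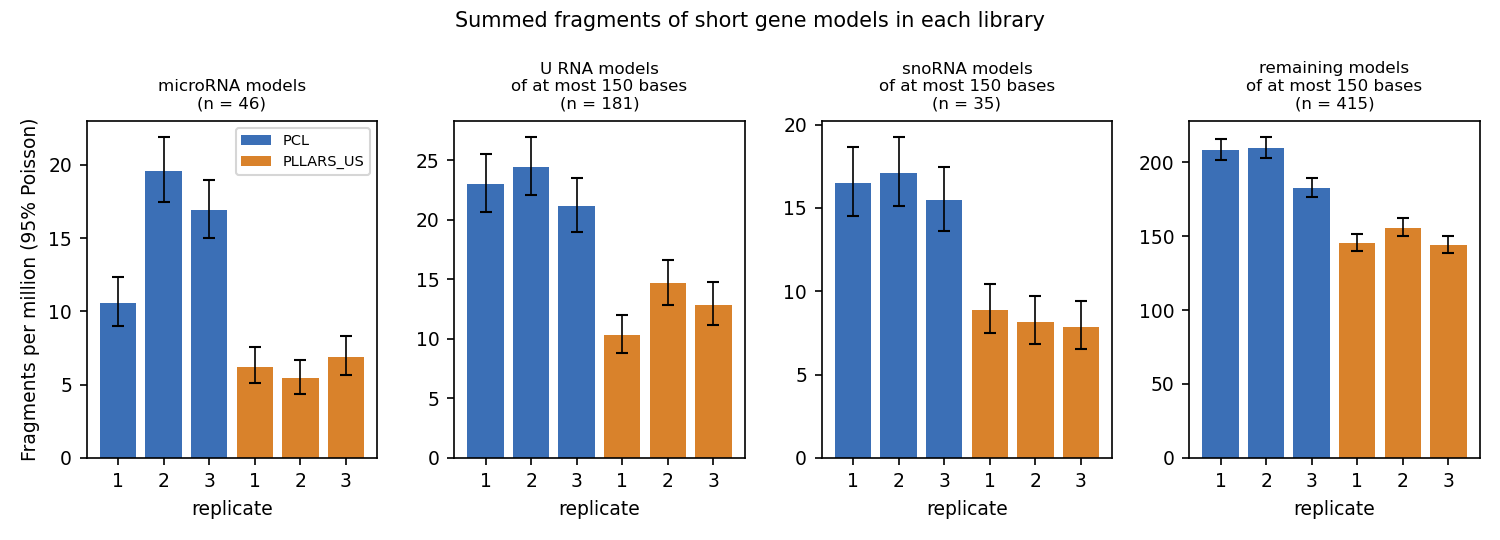
Bars give fragments per 1000000 library fragments summed over microRNA models, U RNA models, snoRNA models and the remaining models of at most 150 bases in each of the 6 libraries, with 95% Poisson intervals as error bars, PCL in blue and PLLARS_US in orange. In each of the 4 panels the 3 PLLARS_US bars stand below the 3 PCL bars, for microRNA models at 5.44 to 6.91 against 10.6 to 19.6.

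The fragments were unevenly spread over the models. The model with most, Mir3074, held 20.9% of the 1054 fragments, and the 8 with most held 70.9%. The test took models whose FPKM averaged 1 or more over the 6 libraries, and 17 did. A model can pass that floor through the group in which it is high, so counts over these 17 describe them and support nothing about the 46. With limma on log2(FPKM + 1) and Benjamini-Hochberg adjustment over 13720 tested models, 0 microRNA models had an adjusted p under 0.05, beside 0 of all tested models (0.0%). An unadjusted p under 0.05 was reached by 6 of the 17, all lower, beside 5.01% of all tested models for the lower direction and 1.99% for the higher. All 17 were lower in the PLLARS_US group, beside 57.0% of all tested models and 80.5% of other tested models of at most 150 bases, with a median log2 difference of -1.22, where the median over all tested models was -0.04 and that over 159 other tested models of at most 150 bases -0.61. Of those 159, 25.8% had an unadjusted p under 0.05 in the lower direction. Leaving out 1 library at a time left 15 or 16 of the 17 microRNA models lower. No overlap in the lower direction was seen for 7 of the 17 (41.2%), beside 10% of all tested models and 24.5% of the other short ones. Without the libraries richest in skeletal muscle RNA, PCL replicate 3 and PLLARS_US replicate 1, 15 of the 17 were lower. Their median log2 difference was then -1.27, beside -0.04 over all tested models.

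**Figure D2:**
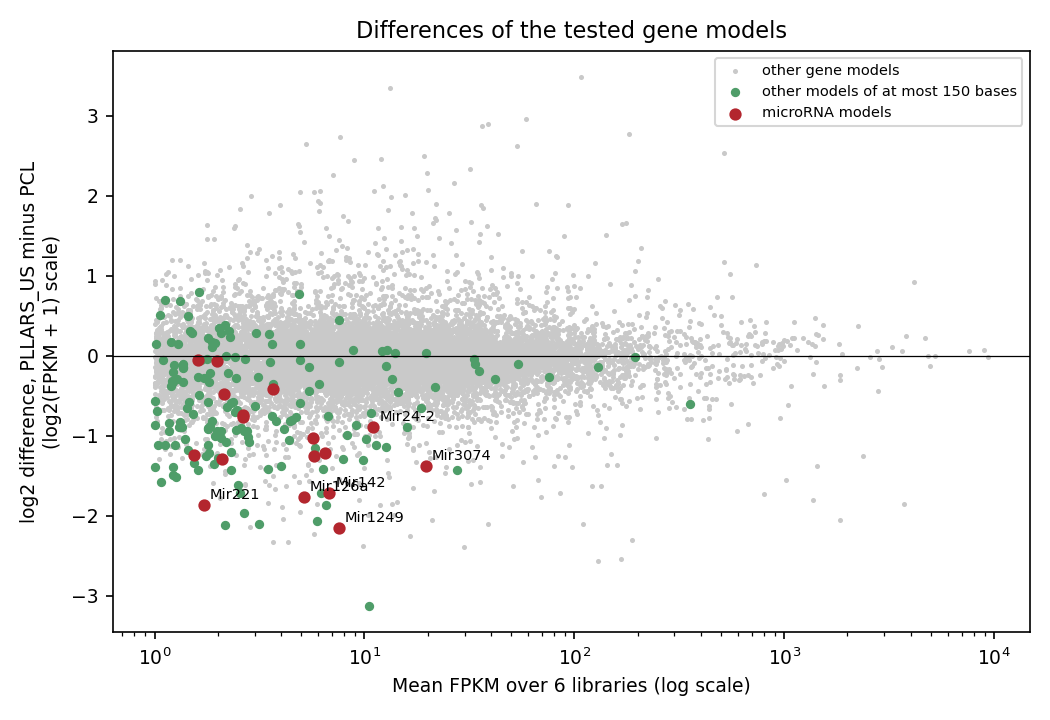
Each point is a tested gene model, with the mean FPKM over 6 libraries on a log axis and the log2 difference of PLLARS_US minus PCL on the log2(FPKM + 1) scale. The 17 microRNA models (red) lie below 0, from -2.16 for Mir1249 to -0.06 for Mir3561, and the 159 other models of at most 150 bases (green) have a median of -0.61.

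The hairpins of the miR-23, miR-27 and miR-24 clusters were the best covered. Mir3074 (ENSRNOG00000035568) lies over Mir24-1, beside Mir23b and Mir27b, at chromosome 17, 823940 to 824056, minus strand in the deposited positions, whose genome build the sources used here do not settle. It had 40, 68 and 53 fragments against 27, 15 and 17. Every PLLARS_US library was below every PCL library. Mean FPKM was 28.7 ± 7.24 (SD, n = 3) against 10.4 ± 3.24, a log2 difference of -1.38 (SE 0.26) with a limma adjusted p of 0.309, and p was 0.00182 before adjustment. Array weights, which down-weight variable libraries, brought the limma adjusted p to 0.0325. Npepo, the nearest gene model in the table, lay 2358 bases away on the other strand and had 7.84 ± 1.93 against 5.39 ± 0.802 FPKM, a log2 difference of -0.45 (SE 0.20). RefSeq places both Aopep, an aminopeptidase gene, and Fancc, a Fanconi anaemia gene, at the Mir3074 locus. Npepo counts as a neighbour by the deposited positions only, and whether it is the same gene as Aopep was not checked.

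Mir24-2 (ENSRNOG00000035501), at chromosome 19, 25318863 to 25318970, plus strand, belongs to the partner cluster with Mir23a and Mir27a. It had 18, 31 and 26 fragments against 8, 13 and 18. The lowest PCL and the highest PLLARS_US library both had 18 fragments, and only the scaling to depth kept their FPKM apart. The FPKM was 14.4 ± 3.58 against 7.54 ± 3.07, a log2 difference of -0.89 (SE 0.32) with a limma adjusted p of 0.650. Zswim4, the nearest gene model at 1713 bases on the other strand, had 10.2 ± 0.522 against 7.76 ± 0.949 FPKM, a log2 difference of -0.35 (SE 0.13). The members of these clusters are widely expressed and are known from work on muscle, heart and vessel wall.

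**Figure D3:**
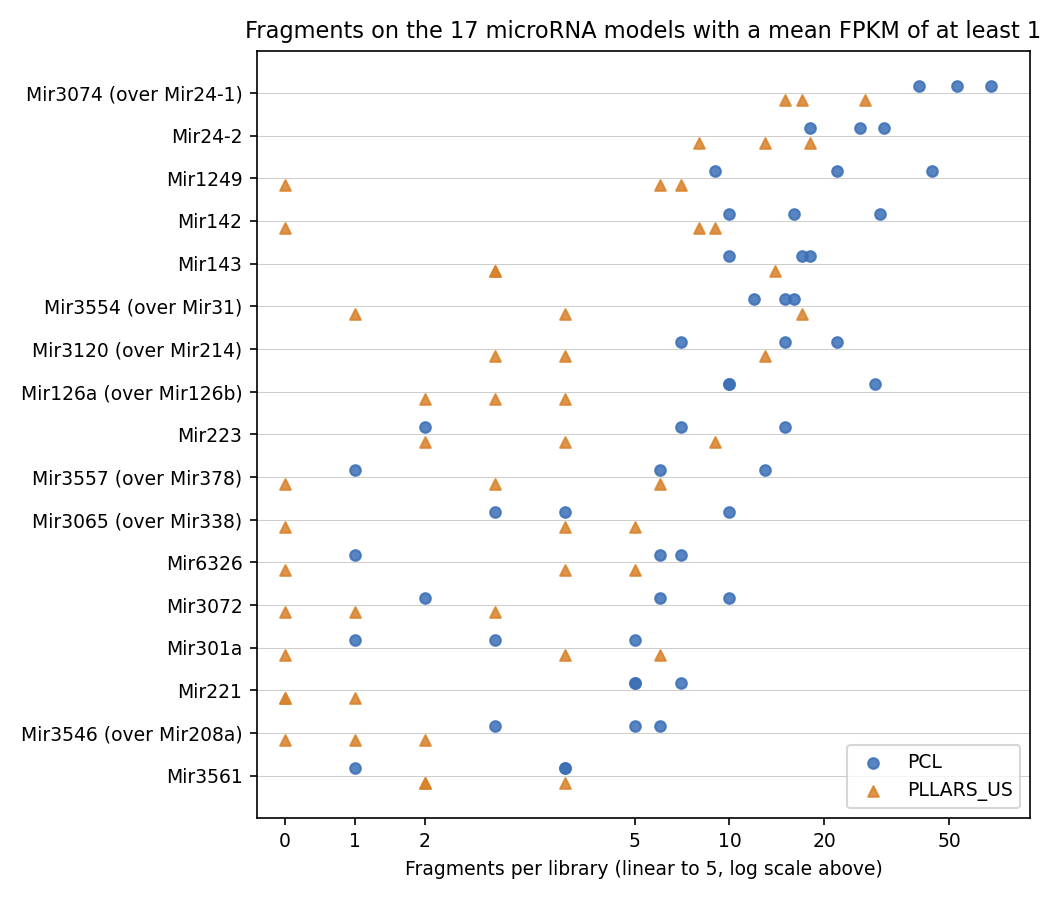
Fragments on each of the 17 microRNA models with a mean FPKM of at least 1, with each library as a point (PCL blue circles, PLLARS_US orange triangles) on an axis that is linear to 5 and logarithmic above. Names in brackets give the RefSeq microRNA gene that the model overlaps. Mir3074 had 40 to 68 fragments in the PCL libraries and 15 to 27 in the PLLARS_US libraries, while Mir301a and Mir3561 overlapped between the groups.

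Among microRNAs known from nerve injury, Mir221 had the smallest p of the 17 tested models. miR-221 and miR-222 are encoded together on chromosome X and, in rat Schwann cells, are known to promote proliferation after injury. Mir221 (ENSRNOG00000035631, plus strand from 3684480 to 3684588) had 5, 5 and 7 fragments against 1, 0 and 0. The groups did not overlap, but the whole result rests on 18 fragments. The FPKM was 3.24 ± 0.528 against 0.187 ± 0.324, a log2 difference of -1.86 (SE 0.27) with a limma adjusted p of 0.225 and a p of 0.000408 before adjustment. With array weights the limma adjusted p was 0.0274. Mir222, beside it on the same strand, had 0, 3 and 1 fragments in the PCL libraries and 0 in each PLLARS_US library. A count of 0 allows up to 3 fragments, 1.27 to 1.96 FPKM for models of these lengths, so absence was not detectable at this depth. Schwann cell markers, all 10 of them present, had summed levels of 1376 to 4950 against 2145 to 5297 FPKM, which overlap. Of the 10, 8 were higher and 2 lower in the PLLARS_US group, and none passed the adjusted threshold. The part of Schwann cell content in the difference of Mir221 was not tested.

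The groups overlapped for the models over Mir338, Mir214 and Mir31. Mir3065 lies over Mir338, whose product is known from oligodendrocytes and Schwann cells, and within Aatk on the opposite strand. It had 3, 10 and 4 fragments against 5, 0 and 4, which overlap. The log2 difference was -0.77 (SE 0.63) with a limma adjusted p of 0.879, and Aatk itself, a kinase gene, had 45.0 ± 11.3 against 44.8 ± 13.0 FPKM. Mir3120 lies over Mir214, within Dnm3, and Mir214 is known from mesenchymal and fibroblast cells. Mir3120 had 7, 22 and 15 fragments against 4, 13 and 3. The highest PLLARS_US library reached into the PCL range, and the log2 difference was -1.03 (SE 0.53) with a limma adjusted p of 0.802. Dnm3, a dynamin, had 11.2, 9.23 and 2.59 against 5.60, 11.6 and 10.1 FPKM, a log2 difference of 0.35 (SE 0.51). Mir3554, over Mir31, had 15, 16 and 12 fragments against 4, 17 and 1, so PLLARS_US replicate 2 stood above every PCL library. Its log2 difference was -1.25 (SE 0.65) with a limma adjusted p of 0.811.

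Apart from Mir221, Mir24-2 and Mir143, which were tested, the hairpins of the nerve injury list in the table did not reach the floor. Mir34a, which p53 induces, had 0, 1 and 5 fragments against 3, 0 and 0. Mir132, known from neurons and activity response, had 2, 1 and 0 against 0, 3 and 0. Mir219a1, a myelin-related hairpin, had 5 of its 6 fragments in PCL replicate 1. Of the 42 names on that list 7 were in the table and 3 were tested, with a median log2 difference of -1.22 and none past the adjusted threshold. All 3 were lower, as were all 17 tested microRNA models and 80.5% of the other short ones. In limma 2 of the 3 had an unadjusted p under 0.05, beside 6 of the 17 and 25.8% of the other short ones.

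Of the hairpins known from blood and immune cells, Mir142 and Mir223 were tested, and neither had a limma p under 0.05 before adjustment. Mir142 (ENSRNOG00000035633, chromosome 10, 75050832 to 75050942, plus strand), a marker of all blood cell lineages, had 10, 16 and 30 fragments against 9, 0 and 8. The groups did not overlap, with PCL replicate 1 and PLLARS_US replicate 1 only 1 fragment apart. The FPKM was 10.4 ± 5.28 against 3.19 ± 2.77, a log2 difference of -1.72 (SE 0.76) with a limma adjusted p of 0.751. Mir223, known from granulocytes and monocytes, had 2, 15 and 7 fragments against 9, 4 and 2, which overlap, and a log2 difference of -0.42 (SE 0.62) with a limma adjusted p of 0.954. AABR07038983.1, a model that partly overlaps it on the same strand, had 12.4 ± 1.44 against 9.28 ± 3.10 FPKM. The 10 macrophage markers had summed levels of 4938 to 8080 against 3330 to 11300 FPKM, none of them under 1 FPKM throughout, and 7 were higher and 3 lower in the PLLARS_US group. The 9 neutrophil markers, with Ngp under 1 FPKM in every library, had summed levels of 52.4 to 113 against 47.4 to 442, the highest in PLLARS_US replicate 1, and of the 7 tested 6 were higher and 1 lower. The 8 red blood cell markers in the table, of 10 listed, were each lower in the PLLARS_US group, with summed levels of 1829 to 20900 against 113.8 to 15910 FPKM. No marker of these 3 lists passed the adjusted threshold. The part of cell makeup in the difference of Mir142 was not tested. Of 31 listed immune names 4 were in the table and 2 were tested.

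The hairpins known from vessels were Mir126a, lower in every PLLARS_US library, and Mir143, whose groups overlapped. The model with the symbol Mir126a (ENSRNOG00000035591), for which RefSeq lists the product miR-126b, lies at chromosome 3, 4042464 to 4042581, minus strand, over Mir126b and within Egfl7 on the opposite strand. Egfl7 is an endothelial gene whose intron houses miR-126. Mir126a had 10, 29 and 10 fragments against 3, 4 and 2, so all 3 PLLARS_US libraries were lower. The FPKM was 8.69 ± 5.86 against 1.58 ± 0.507, a log2 difference of -1.77 (SE 0.42) with a limma adjusted p of 0.477. Egfl7 had 45.8, 44.0 and 25.4 against 24.3, 32.5 and 37.5 FPKM, which overlap. Relative to Egfl7 the model was lower by a log2 difference of -1.51, with an exact two-sided permutation p of 0.1, the smallest that 3 against 3 libraries can give, and 0.4 after adjustment over the 8 such pairs. The 6 endothelial markers in the table, of 8 listed and with Egfl7 among them, had summed levels of 99.1 to 184 against 119 to 178 FPKM. Of these 6, 4 were higher and 2 lower in the PLLARS_US group.

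Mir143 (ENSRNOG00000035603, chromosome 18, 56971273 to 56971377, minus strand), which with Mir145 marks smooth muscle, had 10, 18 and 17 fragments against 3, 3 and 14. PLLARS_US replicate 3 lay inside the PCL range and the other two below it. The FPKM was 8.90 ± 2.38 against 4.01 ± 3.91, a log2 difference of -1.22 (SE 0.53) with a limma adjusted p of 0.737. In RefSeq the locus lies in Carmn, the non-coding host gene of this pair. Of 39 vascular and matrix names 3 were in the table and 2 were tested. Both were lower, as were all 17 tested microRNA models, and 1 had an unadjusted p under 0.05, beside 6 of the 17.

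Hairpins of striated muscle are of interest because skeletal muscle RNA differed widely between the libraries, with summed levels of the 20 muscle markers in the table, of 25 listed, at 208, 1722 and 12180 FPKM in PCL replicates 1 to 3 and 18320, 82.6 and 3616 in PLLARS_US replicates 1 to 3. Mir3582, over Mir133a1 and within Mib1, had 0, 1 and 9 fragments in the PCL libraries and 0 in each PLLARS_US library. PCL replicate 3, one of the muscle-rich libraries, held 9 of its 10 fragments, while PLLARS_US replicate 1, the richest in muscle, held none. Mir3571, over Mir1 in the same gene, had 1 fragment in all. Mir3557 lies over Mir378 in Ppargc1b, a coactivator of mitochondrial genes, and had 1, 6 and 13 fragments against 3, 0 and 6, a log2 difference of -0.74 (SE 0.76) with a limma adjusted p of 0.920. Ppargc1b itself ran 1.61, 3.09 and 10.2 FPKM against 2.64, 2.00 and 1.54, highest in the same library as the model. The part of muscle content in these values was not tested.

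Mir3546 (ENSRNOG00000035583, chromosome 15, 33613435 to 33613550, plus strand) lies over the heart hairpin Mir208a and within Myh6, the cardiac alpha myosin, on the opposite strand. It had 6, 5 and 3 fragments against 2, 1 and 0, without overlap. The log2 difference was -1.24 (SE 0.36) with a limma adjusted p of 0.558. Myh6, itself near the floor, had 1.56 ± 0.124 against 0.846 ± 0.128 FPKM, also without overlap, a log2 difference of -0.47 (SE 0.20). PLLARS_US replicate 1, the library richest in muscle markers, had the lowest Myh6 value, 0.720 FPKM.

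Mir1249 (ENSRNOG00000041492, chromosome 7, 125861192 to 125861311, minus strand) showed the most negative log2 difference of the 17 and lies within RGD1304694, which RefSeq calls Kiaa0930, on the same strand. It had 9, 22 and 44 fragments against 7, 0 and 6. The groups did not overlap, though the PCL libraries themselves differed widely. The FPKM was 12.8 ± 8.61 against 2.25 ± 1.96, a log2 difference of -2.16 (SE 0.75) with a limma adjusted p of 0.640. RGD1304694 ran 61.0, 82.1 and 150 FPKM with the PCL conduit, in the same order as the model, and 67.6, 65.2 and 54.3 with the PLLARS conduit. Relative to RGD1304694 the model was lower by a log2 difference of -1.61, with an exact two-sided permutation p of 0.1 and 0.4 after adjustment.

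Across the 8 tested models that lie in or touch a tested gene, the gene was lower in 6, beside 57.0% of all tested models. Log2 differences of the genes ran from -0.70 to 0.35 with a median of -0.34, and that of the model was below its gene's in 7. A model can pass the floor through the group in which it is high, and 80.5% of other tested models of at most 150 bases were lower. The 7 thus describe these models only. None of the 8 genes had an unadjusted p under 0.05 in limma, and their lowest adjusted p was 0.732. Mir301a in Ska2, a spindle gene, had 3, 1 and 5 fragments against 0, 6 and 4, and differed from Ska2 by -0.18 with an exact two-sided permutation p of 0.7. Mir223 and Mir3557 differed from their genes by 0.0027 and -0.04, each with an exact p of 1. With 3 libraries a group this exact test cannot give a p below 0.1.

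**Figure D4:**
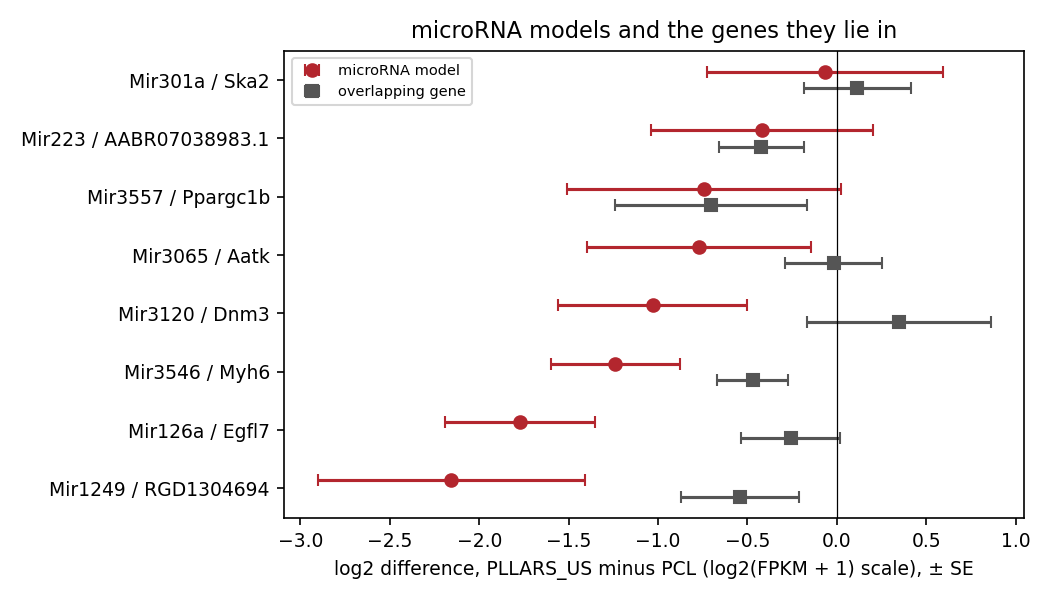
Log2 differences of PLLARS_US minus PCL on the log2(FPKM + 1) scale with standard errors, for 8 microRNA models (red circles) and the gene model that each overlaps (grey squares). Mir1249 and Mir126a lie at -2.16 and -1.77 while RGD1304694 and Egfl7 lie at -0.54 and -0.26, and Mir223, Mir3557 and Mir301a lie close to their genes.

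The imprinted Dlk1-Dio3 region, which encodes the largest microRNA cluster in mammals, was seen through Mir3072 and Mir377, of 54 names listed. Mir3072 (ENSRNOG00000050073, chromosome 6, 133898795 to 133898905, plus strand) had 6, 10 and 2 fragments against 0, 1 and 3, which overlap. Its log2 difference was -1.29 (SE 0.55) with a limma adjusted p of 0.737. Mir377 had 0, 4 and 4 fragments against 0 in each PLLARS_US library. Mir6326, beside Mir22, had 1, 7 and 6 against 5, 0 and 4, and Mir3561 had 1, 4 and 4 against 2, 4 and 2, both with overlap. No name of the proliferation cluster list, 33 long, and 1 of the 17 muscle names was in the table.

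The 29 models that did not reach the floor held 1 to 10 fragments each, 66 in the PCL libraries and 31 in the PLLARS_US libraries. Just inside the floor stood Mir3546 with a mean FPKM of 1.54 and Mir3561 with 1.61, and just outside Mir34a with 0.892 and Mir3582 with 0.85. Of the 29, 13 were seen in the PCL group alone, 8 in the PLLARS_US group alone and 8 in both, and 18 had no more than 2 fragments in all. Mir215, within Iars2 on the opposite strand, had all 6 of its fragments in PCL replicate 2. Mir3568 in Mgrn1 had 1, 0 and 0 fragments against 3, 1 and 1, and Mir3565, over Mir218-1 in Slit2, had 0, 0 and 2 against 0, 0 and 4. At these counts no difference was detectable. At least 1 fragment was found on 24, 30 and 25 models in PCL replicates 1 to 3 and on 19, 16 and 24 in PLLARS_US replicates 1 to 3.

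Of the genes that make and use microRNAs, none passed the adjusted threshold. Of 47 names 42 were in the table and 39 tested, with 23 lower (59.0%, beside 57.0% of all tested models) and 16 higher in the PLLARS_US group and a median log2 difference of -0.03, beside -0.04 over all tested models. Under median-ratio scaling of the libraries, which shifts the median of all models by 0.053, 15 of the 39 were lower. With limma 0 had an adjusted p under 0.05, beside 0.0% of all tested models, and 1 (2.56%) had an unadjusted p under 0.05, beside 7.0%. That gene was Adar, which edits adenosine in double-stranded RNA, primary microRNAs included, and has an interferon-driven isoform. Adar had 16.0, 18.3 and 15.2 against 31.0, 27.1 and 28.1 FPKM, so every PLLARS_US library was above every PCL library. The log2 difference was 0.77 (SE 0.13) with a limma adjusted p of 0.240, and 0.0453 with array weights.

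The differences of the core enzymes Drosha and Dicer1 lay close to 0. Drosha had 13.4 ± 1.11 against 13.7 ± 0.543 FPKM, a log2 difference of 0.02 (SE 0.12), and Dicer1 8.42 ± 0.987 against 7.93 ± 1.06, a log2 difference of -0.08 (SE 0.16). Dgcr8, the RNA-binding partner of Drosha, had 10.8 ± 1.96 against 8.36 ± 1.97 FPKM, and the export receptor Xpo5 9.40 ± 1.36 against 9.17 ± 1.51. Of the Argonautes, Ago2, the one that cleaves targets, had 9.30 ± 2.54 against 7.25 ± 0.815 FPKM, and Ago4 1.89 ± 0.740 against 1.11 ± 0.344. None of these differences exceeded the threshold, and a p that misses it does not show equal levels.

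Among the other genes of smallest p were Hnrnpa2b1, an RNA-binding protein that sorts and processes some microRNAs, at 312 ± 9.04 against 268 ± 10.2 FPKM, and Tent2, which adds adenosines to RNA 3′ ends, at 23.2 ± 2.19 against 19.8 ± 1.75. Both were lower without overlap between groups. Tnrc6b, a silencing partner of Argonaute, at 6.03 ± 0.504 against 7.16 ± 0.470, and Cnot1, the scaffold of the deadenylase complex, at 20.2 ± 1.39 against 23.1 ± 1.11, were higher without overlap. No overlap was seen for 2 lower and 4 higher genes of the 39, 5.13% and 10.3%, beside 10% and 4.33% of all tested models. The most abundant genes after Hnrnpa2b1 were the helicase Ddx5, at 282 ± 36.0 against 271 ± 23.9 FPKM, Hnrnpa1, at 146 ± 25.1 against 123 ± 7.21, and Ran, the GTPase that drives nuclear export, at 142 ± 5.53 against 138 ± 13.5.

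**Figure D5:**
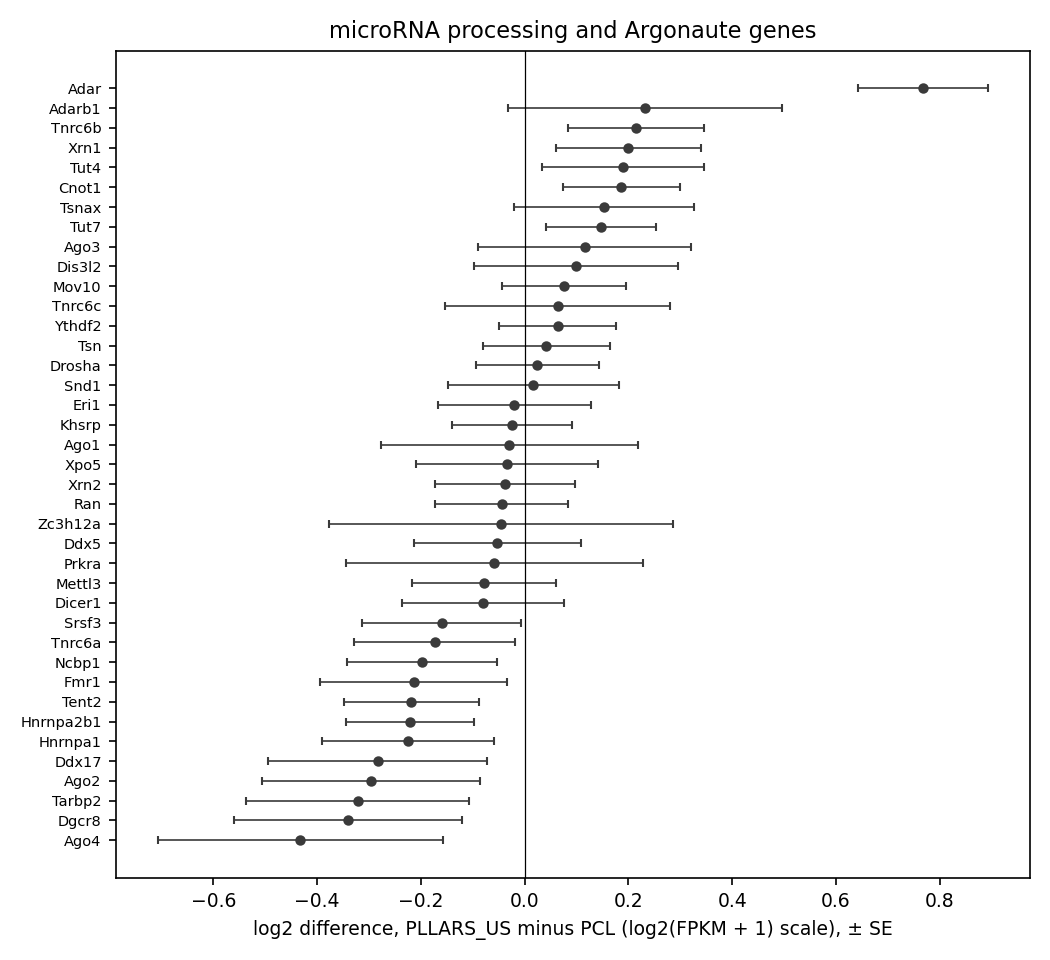
Log2 differences of PLLARS_US minus PCL on the log2(FPKM + 1) scale with standard errors for the 39 tested microRNA processing and Argonaute genes. Adar stands at 0.77, away from the others, while Drosha and Dicer1 lie at 0.02 and -0.08.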

How the data were processed

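The 6 sciatic nerve libraries of poly(A)-enriched RNA were read as paired ends of 150 bases, per the labels' protocols. FPKM was the deposited unit, as the workbook's name states, with 1 column a library. A repeat of the table on another sheet, equal in all 21028 models, was left out. The submitters' processing notes name, without roles, HISAT2 2.1.0, FastQC 0.11.5, DESeq 1.28.0, StringTie 1.3.3b and the human build hg38, although the identifiers are rat, so positions are printed as deposited.

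MicroRNA models were taken by symbol. Fragments were recovered as FPKM times length over each library's step, found from models of at most 150 bases, where 1761 of 1767 values under 50 came within 0.03 of a whole number. The main test was limma (version 3.58.1, R 4.3.3) of log2(FPKM + 1) on group alone, with a trended prior variance, over models averaging at least 1 FPKM. Adjustment was by Benjamini-Hochberg over all tested models, at 0.05. Log2 differences understate the change of low models. The procedure was tested on simulated data, with changes planted only in models of higher level. That run does not cover models near the floor. Overlapping genes, and neighbours within 10 kb, came from the deposited positions, and overlapping microRNA genes and sequences from RefSeq GRCr8. Tables were made with Python 3.11.15.

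Named models were the 12 of smallest p in each direction and the 12 with most fragments. Tested members of lists of muscle, immune, nerve injury, proliferation, vascular and Dlk1-Dio3 microRNAs were named too. That took all of the 17 tested models but Mir301a and Mir3561. The 6 processing genes of smallest p and the 4 of highest level were named. Mir301a, Mir3561, Drosha, Dicer1, Dgcr8, Xpo5, Ago2 and models under the floor go beyond these rules. So do values per library for models under 30 fragments. All of these were chosen after their values were seen. Members and lists were chosen with earlier results of these data known. Alternatives covered the pseudocount, filter, scaling, trend, array weights, a replicate block and leaving out libraries. The alternative with a floor of 12 fragments was not applied to the processing genes.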

Additional observations from a re-analysis of the deposited data

How the results depend on the processing

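Array weights, which down-weight variable libraries, gave 2 microRNA models with a limma adjusted p under 0.05, Mir221 (0.0274) and Mir3074 (0.0325), and 1 processing gene, Adar (0.0453), where the main analysis gave none. That setting called 118 of all tested models. Every other alternative run gave 0 microRNA models and 0 processing genes. The median log2 difference of the microRNA models was -1.22, -1.59 with a pseudocount of 0.1 and -0.39 without a filter, where all 46 enter, and -1.20 to -0.92 without 1 library. The summed fragments gave -1.34 and ranged from -1.56 to -1.15 without 1 library. Values of single models were compared under a pseudocount of 0.1, median-ratio scaling, the replicate block and without 1 library. Of these 153 values 144 kept their direction, and 9 in 4 models changed sign when 1 library was left out. Outside these 153, array weights and quantile normalization each left 16 of the 17 models lower. With array weights 11 of the 17 had an unadjusted limma p under 0.05, 10 of them lower, beside 2827 of 13720 tested models, 1926 of them lower. The 144 include 1 value for each of the 17 models with the replicate block, which cannot change a difference here. Without 1 library Mir301a ranged from -0.51 to 0.61, Mir6326 from -0.99 to 0.13, Mir223 from -0.96 to 0.10 and Mir3561 from -0.40 to 0.13. The cause was not tested.

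Deviations of same-numbered libraries from their group means had correlations of -0.5, 0.146 and -0.32. The highest correlation of any pair, 0.629, joined PCL replicate 3 and PLLARS_US replicate 1, the muscle-rich libraries. With 3 libraries a group these values cannot decide whether libraries were paired, and the main test took them as unpaired. With the replicate number as a block 0 microRNA models passed. The median stayed at -1.22, which the block cannot change because each number occurs once in each group. With the block 543 of all tested models had an unadjusted limma p under 0.05, beside 960 without it. Of the 17 tested microRNA models 8 did, beside 6 without it. Depth limited what could be seen, since 29 of the 46 models held 1 to 10 fragments in all and the result for Mir221 rests on 18.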
